A study of Mus musculus with 4 samples.

Results

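The genes described here are 39 that decide or carry out programmed cell death: the death-promoting and survival members of the *Bcl2* family, death receptors, caspases with their activators and inhibitors, and genes that p53 or cellular stress turn on. A probe set counted as a member when the platform annotation gave it 1 of the 39 symbols and no other, which selected 94 of 45037 probe sets and 39 of 18193 named genes. Of the 39 genes, 21 promote cell death, 7 prevent it, and 11 are targets of p53 or of stress signals. Total RNA from whole hearts of 2 Jun delta mu mice and 2 Junf/f mice was hybridised to Affymetrix whole-genome mouse arrays, each heart on an array of its own. All 4 mice were 10 weeks old, unstressed and of mixed strain background (129/Ola-C57BL/6), and all carried floxed alleles of *Jun*, the gene of the AP-1 subunit c-Jun. Jun delta mu mice also carried Cre recombinase driven by the creatine kinase promoter (MCK-Cre), which is active in heart and skeletal muscle, whereas Junf/f mice had the floxed alleles without Cre. Cells other than muscle therefore kept *Jun* in the Jun delta mu hearts. A growth note among the sample descriptions speaks of cultured ventricular cells, while the titles, source and methods give whole hearts.

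Cell death by the mitochondrial route is set by the balance within the *Bcl2* family. Survival proteins such as Mcl1 hold the pore-forming proteins in check, BH3-only proteins such as Bid, Bik, Bad and Noxa (the product of *Pmaip1*) relieve that check, and cytochrome c then leaves the mitochondria and joins Apaf1 to activate caspase 9. Death receptors on the cell surface start another route through caspase 8, which can cleave Bid and so feed into the mitochondria. The factor p53 turns on genes of both routes and also genes of growth arrest and repair, and in other cell types c-Jun is known to dampen p53 and its target Noxa. Cardiomyocytes hardly divide, so their loss by apoptosis is a feature of the failing heart. The study looked for genes that depend on c-Jun in the heart and considered apoptosis among its outcomes, and the comparison below asks how the transcripts of this pathway stood in unstressed hearts with and without c-Jun in muscle.

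Sequence upstream of the start sites is shown first, because c-Jun and p53 act through DNA sites whose letters are known. Promoters from RefSeq (GRCm38.p6) were at hand for 33 of the 39 members, as 43 start sites, and the 250 bases before each start were searched. The AP-1 site TGANTCA reads the same on both strands. It was found at 1 of the 43 start sites, upstream of *Fas*, the receptor for Fas ligand, and in 6.75% of all 32851 promoters. The CRE site TGACGTCA, to which c-Jun paired with ATF proteins can bind, does not overlap with the AP-1 letters. It was found upstream of 2 members, *Cycs* (cytochrome c) and *Birc2* (an inhibitor of apoptosis), at 2 of the 43 start sites. Among all promoters, 1.55% held it. The matches are in capitals, and each line runs 5′ to 3′ on the strand of the gene.
Fas, chr19:34290428-34290474, plus strand: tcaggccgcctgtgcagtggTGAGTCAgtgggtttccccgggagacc
Cycs, chr6:50566711-50566758, minus strand: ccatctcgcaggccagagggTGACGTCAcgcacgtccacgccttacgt
Birc2, chr9:7837065-7837112, minus strand: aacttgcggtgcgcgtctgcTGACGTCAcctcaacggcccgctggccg

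The p53 half-site consensus also reads the same on both strands. It was found upstream of 5 members, all of them p53 and stress targets. That was 5 of the 43 start sites, beside 7.13% of all promoters. The class of p53 and stress targets had promoters for 8 of its 11 members. In the other classes, 0 of 18 pro-apoptotic and 0 of 7 anti-apoptotic members with promoters held a match. *Bbc3*, a p53 target placed in the pro-apoptotic class, was among those without a match. The 5 are shown because their class was defined by response to p53 or stress, and their transcripts are given further below. The half-site is in capitals.
Mdm2, chr10:117710915-117710964, minus strand: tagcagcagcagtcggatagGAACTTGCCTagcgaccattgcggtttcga
Ccng1, chr11:40755442-40755491, minus strand: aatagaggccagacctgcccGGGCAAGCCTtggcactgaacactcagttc
Sesn1, chr10:41887246-41887295, plus strand: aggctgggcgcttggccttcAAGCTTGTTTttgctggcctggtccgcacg
Gadd45a, chr6:67037418-67037467, minus strand: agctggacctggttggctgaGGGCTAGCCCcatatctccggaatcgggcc
Ei24, chr9:36797335-36797364, minus strand: ccagctgccccgtgcggcccGGGCATGCCC
A match of letters is a description of the sequence, not evidence of binding. *Bid* and *Xiap*, described next, held none of these motifs in their windows. *Bik* and *Pmaip1* were among the members without a promoter at hand, so they were not searched.

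Signals are the authors' RMA values on the log2 scale, and each difference is the mean of the Jun delta mu arrays minus the mean of the Junf/f arrays. A probe set passed the threshold when it differed by more than 1.3-fold (0.379 on the log2 scale) with an unadjusted p under 0.05 in limma. The gene *Jun* checked the labels: its brighter probe set read 7.02 and 7.14 in Jun delta mu hearts, against 8.30 and 9.00 in Junf/f hearts, which is 33.8% of the Junf/f signal on the linear scale. Median signals of the arrays lay between 5.45 and 5.47. Each array was set beside the averaged log2 signal of the rest, and probe sets more than 2-fold away were counted. Junf/f replicate 1 stood apart with 104 such probe sets, while the counts elsewhere were 24 to 33. It was also the highest of the 4 arrays for 18 of the 39 members, 11 of them pro-apoptotic, by the brightest probe set of each gene. How often it was the highest over all named genes was not counted. Jun delta mu replicate 2 carried atrial muscle transcripts, with a mean of 8.75 over 3 atrial markers, against 5.05 in Jun delta mu replicate 1 and 4.80 and 5.20 in Junf/f hearts. Markers of ventricular muscle had means of 14.39 and 14.39 in Jun delta mu hearts and 14.36 and 14.37 in Junf/f hearts. Ventricular muscle was thus borne out on every array, but an equal share of atrium in each heart was not.

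Few transcripts of the cell death pathway passed the threshold between the genotypes. Of the 94 member probe sets, 3 were lower in Jun delta mu hearts past the threshold and 0 were higher. The 3 belong to *Bid*, *Bik* and *Xiap* and make up 3.19% of the members' probe sets, where 0.959% of all probe sets were lower and 0.568% were higher. No adjusted p of a member was under 0.896 (limma with Benjamini-Hochberg adjustment over 45037 probe sets), and the lowest over all probe sets was 0.237. The deleted gene *Jun* also had an adjusted p of 0.896 in limma. The adjusted p therefore could not single out even that loss, and a high value does not show that a transcript was unchanged. At an unadjusted p under 0.05 stood 7 member probe sets, all lower (7.45% of 94, beside 2.64% of all probe sets lower and 2.52% higher). By the methods' t-test, 2 member probe sets passed the same threshold (2.13%, beside 0.444% of all). When each gene was read by its brightest probe set, 0 of the 39 members passed in either direction, while 0.786% of all genes were lower and 0.665% higher. The study's own list of changed genes, made from these same arrays, holds all 3 symbols, so their direction here is not independent evidence.

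*Bid* encodes the BH3-only protein that links caspase 8 to the mitochondria, and is located on chromosome 6 (GRCm38, chr6:120893119-120917062). The *Bid* probe set that passed read 4.40 and 4.54 in Jun delta mu hearts, against 4.84 and 5.00 in Junf/f hearts. Both Jun delta mu arrays were below both Junf/f arrays. The difference was -0.45 (standard error 0.11, 95% interval -0.71 to -0.18), or 73.4% of the Junf/f signal. The brightest *Bid* probe set read 4.76 and 4.84 in Jun delta mu hearts and 4.95 and 4.99 in Junf/f hearts. Its groups were separate too, but the difference of -0.17 was smaller and did not pass. A dim *Bid* probe set differed by 0.04 with overlapping groups. The passing probe set was itself dim, brighter than 37.4% of all probe sets. It no longer passed without Junf/f replicate 2, at -0.37, or without Jun delta mu replicate 1, at -0.38.

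*Bik* encodes a BH3-only protein of the endoplasmic reticulum and lies on chromosome 15 (chr15:83526790-83544635). The *Bik* probe set that passed read 6.27 and 6.23 in Jun delta mu hearts, against 6.90 and 6.48 in Junf/f hearts. The groups did not overlap, although the Junf/f hearts lay far apart from each other. The difference was -0.44 (standard error 0.15, 95% interval -0.82 to -0.06). The brightest *Bik* probe set read 7.15 and 6.90 in Jun delta mu hearts and 7.94 and 7.10 in Junf/f hearts, and a further one differed by -0.40. All 3 *Bik* probe sets thus pointed the same way, but in these 2 the groups overlapped, with Junf/f replicate 1 highest. The brightest probe set had the largest difference of any member, at -0.49 (standard error 0.28), and did not pass. Its name ends in _x_at, which marks probes that may also match other transcripts. Without Junf/f replicate 1 its difference was -0.07 and that of the probe set that had passed was -0.23, no longer past the threshold. Without Junf/f replicate 2 they were -0.92 and -0.65, and both passed. The probe set that had passed also lost the call without Jun delta mu replicate 1, at -0.46, without Jun delta mu replicate 2, at -0.42, and by the methods' t-test.

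*Xiap* encodes a direct inhibitor of caspases and lies on the X chromosome (chrX:42059613-42109664). The *Xiap* probe set that passed read 3.66 and 3.47 in Jun delta mu hearts, against 4.09 and 3.99 in Junf/f hearts. The groups were separate, and the difference was -0.48 (standard error 0.11, 95% interval -0.74 to -0.21), or 71.8% of the Junf/f signal. It passed on leaving out each array in turn. This probe set was brighter than only 18.7% of all probe sets, however. The brightest *Xiap* probe set read 9.82 and 9.80 in Jun delta mu hearts and 9.97 and 9.83 in Junf/f hearts, a difference of -0.09. The other 5 ranged from -0.21 to 0.22, and the highest of these read 5.35 and 5.14 in Jun delta mu hearts and 5.13 and 4.92 in Junf/f hearts. The 7 *Xiap* probe sets therefore disagreed in direction, and the one that passed was not the one with most signal.

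**Figure D1:**
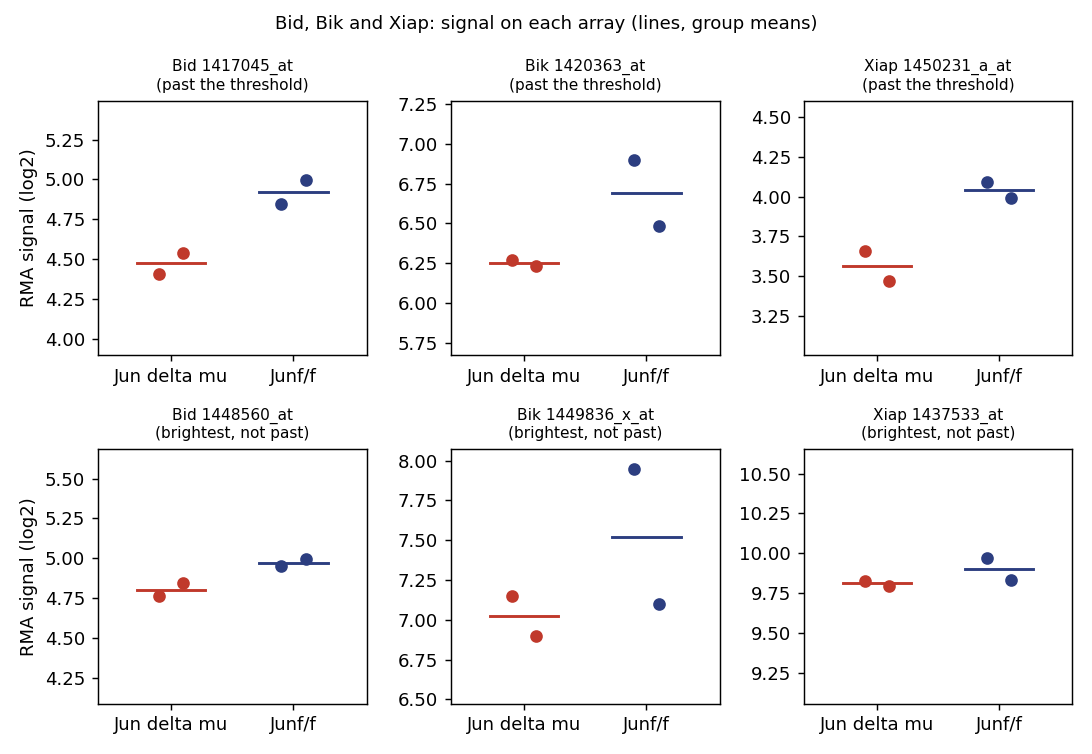
RMA signal (log2) on each array for the 3 member probe sets past the threshold (upper row) and for the brightest probe set of the same genes (lower row). Points are single hearts (2 per genotype), lines are group means, and each panel spans the same range of 1.6 log2 units. The Jun delta mu hearts lie below the Junf/f hearts in each upper panel, whereas the differences in the lower row are -0.17 for Bid, -0.49 with overlapping groups for Bik and -0.09 for Xiap.

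Disagreement among probe sets of a gene was common. Of the 25 members with several probe sets, 7 had all differences of the same sign and 18 had both signs. The same share over all genes with several probe sets was not counted. Of the 94 probe sets, 23 were below the median signal of the arrays. *Bcl2* and *Sesn1* each had a dim probe set with an unadjusted p under 0.05 that differed from the gene's others. For *Bcl2*, the founding survival gene of its family, this probe set read 4.16 and 4.08 in Jun delta mu hearts and 4.58 and 4.41 in Junf/f hearts, a difference of -0.38 that fell just short of 1.3-fold. Its other 4 probe sets, all brighter, lay between -0.05 and 0.05. For *Sesn1*, a stress-induced regulator of growth signalling, it read 4.13 and 4.05 in Jun delta mu hearts and 4.46 and 4.35 in Junf/f hearts, a difference of -0.32, while its 3 bright probe sets differed by 0.10, 0.12 and 0.12.

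**Figure D2:**
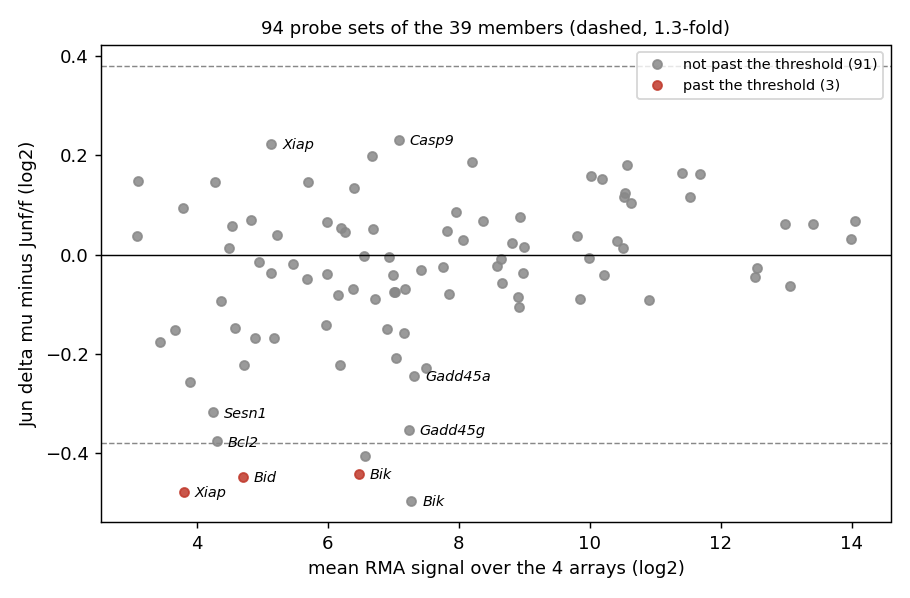
Difference between Jun delta mu and Junf/f hearts (log2) against the mean signal over the 4 arrays (log2) for the 94 member probe sets. Red points passed the threshold, and dashed lines mark 1.3-fold. The differences run from -0.49 to 0.23, and of the 3 probe sets that passed, those of Xiap and Bid are among the dimmer ones.

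Among the BH3-only and other death-promoting genes of the *Bcl2* family, *Pmaip1* and *Bbc3* are the best known targets of p53. *Pmaip1* (Noxa) read 3.29 and 3.42 in Jun delta mu hearts, against 3.53 and 3.53 in Junf/f hearts. Both Jun delta mu hearts were lower, but the difference of -0.18 (95% interval -0.41 to 0.06) did not pass, and the probe set was brighter than only 10.2% of all. *Bbc3*, which encodes Puma, read 5.78 and 5.77 in Jun delta mu hearts and 5.63 and 5.63 in Junf/f hearts, a difference of 0.15 (95% interval -0.07 to 0.36) with separate groups. The 2 p53 targets thus stood on opposite sides of 0, and neither passed. *Bak1*, which encodes a pore-forming protein of the mitochondrial membrane, read 6.41 and 6.52 in Jun delta mu hearts and 6.32 and 6.34 in Junf/f hearts by its brightest probe set. Its other probe set read 4.68 and 4.52 in Jun delta mu hearts and 4.81 and 4.83 in Junf/f hearts. The groups were separate in both, but in opposite directions, at 0.13 and -0.22. *Bad*, which is held inactive by survival kinases, was -0.08 by the brightest and 0.20 by the other. *Bnip3*, a mitochondrial protein induced by hypoxia and bright in heart, differed by -0.06.

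*Bcl2l11*, which encodes the BH3-only protein Bim, varied more between hearts than between genotypes. Its brightest probe set read 9.14 and 8.86 in Jun delta mu hearts, against 9.35 and 8.62 in Junf/f hearts. The Junf/f hearts were thus the highest and the lowest of all, and the difference of 0.02 had a 95% interval of -0.62 to 0.65. The 5 *Bcl2l11* probe sets differed by -0.22 to 0.07. A like spread was seen for *Fas*, which read 8.68 and 8.59 in Jun delta mu hearts and 8.95 and 8.43 in Junf/f hearts. *Trp53inp1*, a p53-induced protein that promotes the death function of p53, read 8.98 and 8.74 in Jun delta mu hearts and 9.21 and 8.68 in Junf/f hearts. In each of these 3 genes Junf/f replicate 1 was the highest array and Junf/f replicate 2 the lowest.

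The death receptors other than *Fas* showed small differences. *Tnfrsf10b*, the mouse receptor for TRAIL and a p53 target, read 4.49 and 4.53 in Jun delta mu hearts and 4.73 and 4.58 in Junf/f hearts by its brightest probe set, a difference of -0.15 that its other probe set, at 0.06, did not share. *Tnfrsf1a*, the main receptor for TNF, differed by -0.04.

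Of the caspases, the initiators of the 2 routes stood on opposite sides of 0. *Casp8*, the initiator below the death receptors, read 7.35 and 7.42 in Jun delta mu hearts, against 7.76 and 7.46 in Junf/f hearts. The groups were separate by a narrow margin, and the difference of -0.23 (95% interval -0.54 to 0.09) did not pass. It was -0.08 without Junf/f replicate 1 and -0.37 without Junf/f replicate 2, just under 1.3-fold. *Casp9*, the initiator on the apoptosome, read 7.17 and 7.23 in Jun delta mu hearts and 6.81 and 7.12 in Junf/f hearts by its brightest probe set. That difference was 0.23 (95% interval -0.09 to 0.55), the highest of any member, and its other 2 probe sets were at -0.09 and -0.04. Without Junf/f replicate 1 the *Casp9* difference was 0.07, and without Junf/f replicate 2 it was 0.39 and passed. *Apaf1*, the scaffold of the apoptosome, read 6.56 and 6.55 in Jun delta mu hearts and 6.69 and 6.43 in Junf/f hearts. *Casp2*, *Casp6* and *Casp12* had differences of -0.03, 0.03 and -0.07.

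The proteins that mitochondria release gave bright and nearly equal signals. *Cycs* read 14.10 and 14.05 in Jun delta mu hearts, against 14.04 and 13.98 in Junf/f hearts, and its 4 probe sets differed by 0.03 to 0.07. *Diablo*, which relieves the inhibition of caspases by Xiap, read 10.33 and 10.18 in Jun delta mu hearts and 9.92 and 10.28 in Junf/f hearts, a difference of 0.15 with overlapping groups. *Aifm1*, a flavoprotein needed for respiration that can act in the nucleus when released, differed by 0.01. *Endog*, a mitochondrial nuclease, differed by -0.01.

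Survival genes showed no call by their brightest probe sets. *Mcl1* read 11.73 and 11.80 in Jun delta mu hearts, against 11.56 and 11.65 in Junf/f hearts, a difference of 0.16 (95% interval -0.07 to 0.39). In 5 of its 6 probe sets both Jun delta mu hearts were above both Junf/f hearts, with differences of 0.11 to 0.18, and the other was at 0.03, but these probe sets read the same transcript in the same 4 hearts and none passed. *Bcl2l1*, which encodes Bcl-xL, read 8.79 and 8.84 in Jun delta mu hearts and 8.77 and 8.82 in Junf/f hearts. *Birc2*, a cellular inhibitor of apoptosis with a CRE site in the sequence above, read 8.86 and 8.87 in Jun delta mu hearts and 9.06 and 8.87 in Junf/f hearts. Its difference of -0.11 came from Junf/f replicate 1, the only array that stood off, and that of its neighbour and paralog *Birc3* was 0.09. *Cflar*, which blocks caspase 8 at death receptors, differed by -0.01, and its 5 probe sets lay between -0.08 and 0.05.

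The Gadd45 genes, which are induced by DNA damage and stress and act on growth arrest, held the members with the lowest p by the brightest probe set. *Gadd45g* (chr13:51846675-51848475) read 6.96 and 7.16 in Jun delta mu hearts, against 7.47 and 7.36 in Junf/f hearts. The groups were separate and the difference was -0.35 (standard error 0.11, 95% interval -0.63 to -0.08), or 78.3% of the Junf/f signal, which is under 1.3-fold. *Gadd45a*, with a p53 half-site in the sequence above, read 7.19 and 7.20 in Jun delta mu hearts and 7.51 and 7.36 in Junf/f hearts, a difference of -0.24 (95% interval -0.49 to -0.0026). These 2 were the only members with an unadjusted p under 0.05 by the brightest probe set (limma, adjusted p = 0.896 for each). *Gadd45b* read 7.17 and 6.99 in Jun delta mu hearts and 7.03 and 7.45 in Junf/f hearts, with overlapping groups and a difference of -0.16. *Gadd45g* passed the threshold without Junf/f replicate 2, at -0.41, and without Jun delta mu replicate 2, at -0.46, whereas without Junf/f replicate 1, at -0.30, and without Jun delta mu replicate 1, at -0.25, its unadjusted p was no longer under 0.05. That of *Gadd45a* was under 0.05 without Junf/f replicate 2, at -0.32, but not without Junf/f replicate 1, at -0.17, without Jun delta mu replicate 1, at -0.24, or without Jun delta mu replicate 2, at -0.25, nor with 3 further normalizations or a trended robust prior. By the methods' t-test neither gene was under 0.05. In that test 2 other members were, by the brightest probe set: *Bbc3*, higher at 0.15, and *Zmat3*, lower at -0.08. Both differences were under 1.3-fold, and neither of these members was under 0.05 in limma.

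The other members with a p53 half-site upstream had small differences. *Mdm2*, the ligase that degrades p53 and is itself a p53 target, read 8.98 and 8.95 in Jun delta mu hearts and 8.85 and 8.94 in Junf/f hearts. *Ccng1*, a cyclin induced by p53, read 13.03 and 12.97 in Jun delta mu hearts and 12.87 and 13.01 in Junf/f hearts. *Sesn1* read 10.73 and 10.62 in Jun delta mu hearts and 10.57 and 10.57 in Junf/f hearts by its brightest probe set. *Ei24*, a p53-induced protein of the endoplasmic reticulum, read 10.25 and 10.15 in Jun delta mu hearts and 10.31 and 10.16 in Junf/f hearts. The differences of these 4 were 0.08, 0.06, 0.10 and -0.04, and the highest bound of their 95% intervals was 0.33. Among the remaining targets, *Sesn2* differed by 0.05, *Perp*, a membrane protein of desmosomes, by -0.09, *Zmat3*, an RNA-binding protein, by -0.08 and *Trp53inp1* by -0.09.

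**Figure D3:**
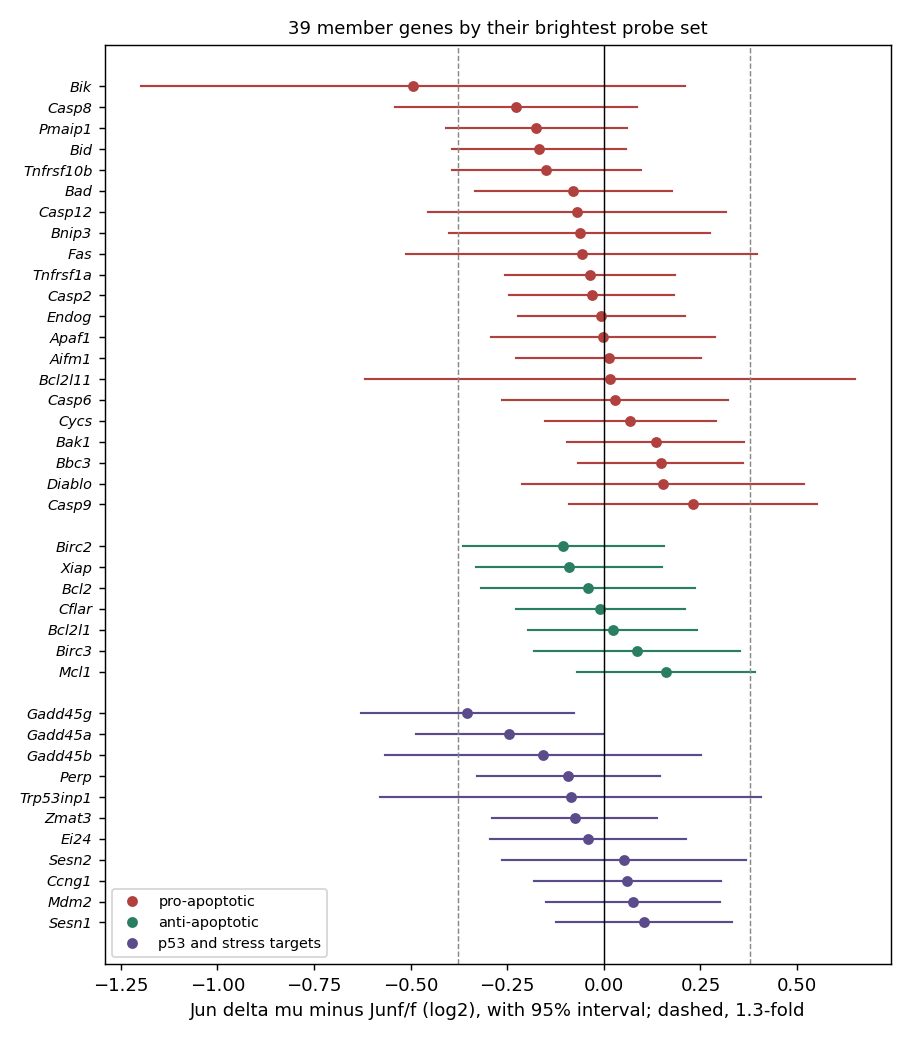
Difference between Jun delta mu and Junf/f hearts (log2) with its 95% interval from limma for the 39 members, each by its brightest probe set, grouped by role and ordered within each group. Dashed lines mark 1.3-fold. Bik is lowest at -0.49 and Casp9 highest at 0.23, and the intervals of Gadd45g and Gadd45a are the ones that lie wholly below 0.

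The classes were compared as a whole by the median difference of their members. It was -0.03 for the 21 pro-apoptotic genes (13 below 0 and 8 above), -0.01 for the 7 anti-apoptotic genes (4 below and 3 above) and -0.08 for the 11 p53 and stress targets (7 below and 4 above). Over all 39 it was -0.04, beside 0.01 over the 18193 named genes. Both Jun delta mu hearts were below both Junf/f hearts in 11 members (28.2%) and above them in 7 (17.9%), where 15.9% of all genes were separate in the lower direction and 17.8% in the higher. With 2 hearts against 2, an exact permutation test cannot give a two-sided p below 0.333.

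On single arrays, after subtracting the mean of each gene, the median of the pro-apoptotic class was -0.01 and -0.02 in Jun delta mu hearts and 0.06 and -0.01 in Junf/f hearts. That of the anti-apoptotic class was -0.01 and -0.0040 in Jun delta mu hearts and -0.01 and -0.03 in Junf/f hearts. The pro-apoptotic minus the anti-apoptotic median was 0.01 and -0.02 in Jun delta mu hearts, against 0.07 and 0.02 in Junf/f hearts. The difference of the class medians was -0.02, and it was -0.0026 without Junf/f replicate 1 and -0.10 without Junf/f replicate 2. It turned to 0.0028 without the dimmest 40% of probe sets and likewise without probe sets named _s_at or _x_at, so the data gave no stable direction for the balance of the classes. The p53 and stress targets had medians of 0.02 and -0.07 in Jun delta mu hearts and 0.04 and 0.04 in Junf/f hearts, so Jun delta mu replicate 2 was the array that stood lowest.

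**Figure D4:**
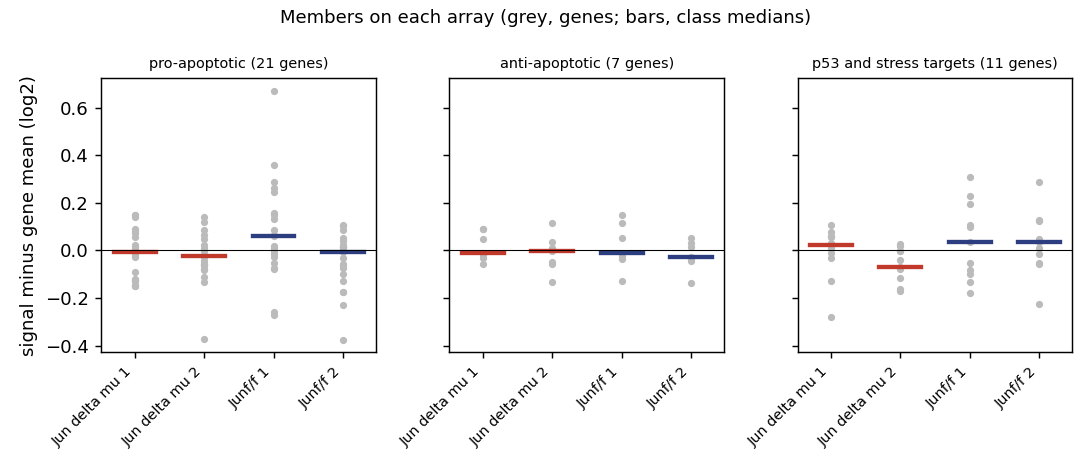
Signal of each member by its brightest probe set minus its mean over the 4 arrays (log2), by array and class. Grey points are genes and bars are class medians. The bars lie between -0.07 and 0.06, and the widest scatter of the pro-apoptotic genes is on Junf/f replicate 1.

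The width of the intervals sets what these 4 arrays could show. The median standard error of the members, each by its brightest probe set, was 0.0974. For 23 of the 39, the 95% interval of that probe set lay wholly within 1.3-fold in either direction. *Xiap* is among the 23, although its dim probe set that passed had an interval of -0.74 to -0.21. For 13 members the interval reached past 1.3-fold lower and for 6 past 1.3-fold higher, so a change of that size is not excluded for them. In 6 members, *Bcl2l11*, *Bik*, *Fas*, *Casp12*, *Gadd45b* and *Trp53inp1*, the interval extended by more than 1.3-fold to either side of the difference.

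Beyond the 39 members, a list of 47 other genes of cell death and p53 signalling was read in the same way. Of these, 40 were measured, 0 passed in either direction by their 89 probe sets, and the median difference was 0.01. *Ddit4*, a stress-induced inhibitor of mTORC1 signalling, had the largest difference, at 0.94, but read 10.86 and 10.34 in Jun delta mu hearts and 8.94 and 10.38 in Junf/f hearts. Its groups overlapped, and the difference was 0.22 without Junf/f replicate 1 and 1.66, past the threshold, without Junf/f replicate 2. The largest differences with separate groups were those of *Casp14*, *Pdcd4* (an inhibitor of translation) and *Bcl2l10*, at 0.29, 0.27 and 0.26. In the lower direction, the largest with separate groups was that of *Dffa*, at -0.14. Of all genes, 17.8% were separate in the higher direction and 15.9% in the lower.

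Some cell type markers stood in the same direction as *Bid*, *Bik* and the Gadd45 genes. The 3 smooth muscle markers had means of 8.30 and 8.70 in Jun delta mu hearts, against 9.05 and 8.83 in Junf/f hearts, and the 4 endothelial markers had means of 8.64 and 8.59, against 8.70 and 8.80. The means were separate between genotypes, with 0 of 3 and 0 of 4 markers past the threshold, and the endothelial marker *Cdh5* differed by 0.0042. Of 2 measured blood markers, 1 was lower past the threshold, and the other, *Hba-a1*, differed by -0.01. The fibroblast means and the adipocyte marker stood the opposite way. The 5 fibroblast markers had means of 10.84 and 10.90 in Jun delta mu hearts and 10.83 and 10.72 in Junf/f hearts, with 0 past the threshold. Of these, *Lum*, *Col1a1* and *Col3a1* differed by 0.32, 0.21 and 0.04, whereas *Pdgfra* and *Dcn* differed by -0.09 and -0.02. The 1 measured adipocyte marker read 5.40 and 4.96 in Jun delta mu hearts and 4.40 and 4.93 in Junf/f hearts. The 5 macrophage markers had means of 9.22 and 9.22 in Jun delta mu hearts and 9.25 and 9.13 in Junf/f hearts. The macrophage means overlapped between genotypes, and the median difference of these markers was -0.0012. The part of these cell types in the member genes was not tested. In whole hearts, fewer cells of a type and less RNA per cell cannot be told apart.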

How the data were processed

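RNA from 4 whole hearts, 2 per genotype, was hybridised to Affymetrix mouse arrays. The deposited log2 values are RMA signals that the authors background-corrected and normalized between arrays, and the submitters' processing notes name RMA and oligo. The values carry no detection calls and no depth, and precision is limited by the number of arrays. The 64 control probe sets were left out and 45037 kept without a filter. The annotation named 1 gene for 34945 of them, several for 932 and none for 9160. A model with genotype alone was fitted to each by limma (version 3.58.1, R version 4.3.3; moderated by eBayes, two-sided, 2 residual degrees of freedom), with Benjamini-Hochberg adjustment over all. The methods name Student's test, tried as an alternative. A gene was read by its probe set with the highest mean over the 4 arrays. The code was checked on simulated data, where recovery was required only of added shifts far larger than any member difference. Its power at the sizes seen here is not given. Members, roles and lists were chosen with earlier results of these data known. All members are given. Values of each array are shown for members with a probe set past the threshold and for the up to 3 largest differences of each class. They are also shown for *Pmaip1*, which the study discusses, and for further members chosen after their values were seen. Members whose probe sets disagree in sign are shown so only in part. Of the other list, 7 genes were not analysed here. Promoters came from RefSeq and were read with Python 3.11.15, and figures were drawn with matplotlib 3.10.9.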

Additional observations from a re-analysis of the deposited data

How the results depend on the processing

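The count of 3 lower member probe sets held at 2 to 4 under the methods' t-test, 3 further normalizations, a trended robust prior, linear means and specific probe sets only. It was 1 after the dimmest 40% of probe sets were removed, since the passing probe sets of *Bid* and *Xiap* are among those. On leaving out each array in turn, lower member probe sets ranged from 2 to 8 and higher ones from 0 to 1, lower member genes from 0 to 2 and higher ones from 0 to 1. The upper ends came without Junf/f replicate 2, when 3452 of all probe sets passed, against 688 with all arrays. The lone array of a genotype was then assumed to vary like the other genotype. With the replicate number as a block, 3 member probe sets were lower and 683 of all passed, and the counts of members past the threshold did not move. The count of members with an unadjusted p under 0.05 by the brightest probe set was 1 with the block (*Gadd45g*), against 2 without it, and it ranged from 0 to 8 over all alternatives run. The deviations of same-numbered hearts correlated at 0.0281 over 2 pairs. So few pairs cannot show whether same-numbered hearts shared more than a number.

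The median over the 39 members ranged from -0.055 to -0.0071 on leaving out arrays, that of the pro-apoptotic genes from -0.10 to -0.0096, that of the p53 and stress targets from -0.091 to 0.0097, and the pro-apoptotic minus the anti-apoptotic median from -0.10 to -0.0026. That last difference turned to 0.0028 both without the dimmest 40% of probe sets and with specific probe sets only. The anti-apoptotic median ranged from -0.0088 to 0.0045, and it was 0.018 with quantile normalization and 0.010 with cyclic loess. The causes were not tested.

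Directions of small differences did not hold. By the brightest probe set, 21 of 39 members turned under some alternative, all with differences of at most 0.158 in size, and 18 kept their direction under all alternatives run. On leaving out arrays the pro-apoptotic genes that turned were *Bcl2l11* (-0.35 to 0.38), *Bad* (-0.17 to 0.0091), *Bnip3* (-0.19 to 0.066), *Fas* (-0.32 to 0.20), *Apaf1* (-0.13 to 0.13), *Casp6* (-0.10 to 0.16), *Casp12* (-0.28 to 0.14), *Diablo* (-0.028 to 0.33), *Aifm1* (-0.055 to 0.081) and *Endog* (-0.032 to 0.020). The survival genes were *Bcl2* (-0.15 to 0.070), *Bcl2l1* (-0.0012 to 0.047), *Birc3* (-0.0088 to 0.18) and *Cflar* (-0.036 to 0.019). The p53 and stress targets were *Gadd45b* (-0.37 to 0.053), *Sesn2* (-0.10 to 0.21), *Ei24* (-0.12 to 0.036), *Ccng1* (-0.0065 to 0.13) and *Trp53inp1* (-0.35 to 0.18). With quantile normalization *Apaf1* turned to 0.019, *Casp2* to 0.0024 and *Cflar* to 0.018, and with cyclic loess *Apaf1* to 0.013, *Endog* to 0.0023 and *Cflar* to 0.010. With linear means *Bcl2l11* turned to -0.023. As the mean over all probe sets of a gene, *Bcl2l11* was -0.075, *Bad* 0.0595, *Bak1* -0.044, *Apaf1* 0.019, *Endog* 0.015, *Bcl2l1* -0.013, *Sesn2* -0.044 and *Ccng1* -0.0035.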
